A study of Mus musculus with 45 samples.

Results

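The genes described here belong to the oligodendrocyte lineage of the mouse brain, and their expression was followed in the nucleus accumbens (NAC), a striatal region involved in reward, after repeated ethanol vapor exposure. Of 33 listed genes, 31 had at least 1 probeset annotated with their symbol alone, among 18193 genes with such a probeset on the array. Of these 31, 18 are genes of mature, myelin-forming oligodendrocytes and 13 are genes of precursors and of the lineage as a whole. They were represented by 65 of the 45037 probesets, and the probeset with the highest mean gave the value of each gene. The only probeset of Trf, the transferrin gene, is shared with another gene, and Trf and Neu4 were not analysed here. The genes were taken by name, with earlier results of these data known, and their values entered only the choice of probeset.

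Adult male C57BL/6J mice underwent 4 cycles of chronic intermittent ethanol (CIE) vapor or of air alone (Ctrl), each of 4 days with 16 h a day in the inhalation chamber, and cycles lay 7 days apart. Before the chamber, mice of the CIE groups were injected intraperitoneally with ethanol at 1.6 g/kg and with 1 mmol/kg of pyrazole, which blocks alcohol dehydrogenase, and they breathed 10 to 13 mg of ethanol per liter of air. Ctrl mice were given saline and the same dose of pyrazole, so every group carries the effect of pyrazole and of handling. NAC tissue was taken at 0 h, 8 h, 72 h and 7 d after the last session, and RNA of each mouse was measured on its own array. The Ctrl groups held 6, 5, 6 and 6 arrays in order of time, and the CIE groups held 6, 5, 5 and 6. Values are log2 expression values, on which a difference of 1 is a 2-fold difference, and differences below are CIE minus Ctrl or later time minus 0 h on this scale. Each test was made with limma over all 45037 probesets, and a gene was called at a Benjamini-Hochberg adjusted p of 0.01 or less.

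Oligodendrocytes wrap axons in myelin, a multilayered membrane rich in galactolipids and in a small set of proteins such as myelin basic protein. They arise throughout adult life from precursors that carry the receptor PDGFRA and the proteoglycan NG2, through a short committed stage marked by GPR17, ENPP6 and BMP4. OLIG1, OLIG2 and SOX10 are transcription factors present along the whole lineage, while MYRF and NKX6-2 act in differentiating and mature cells. In a striatal dissection, white matter of the anterior commissure and of fibre bundles contributes many of the mature cells.

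The array values placed these genes where a tissue with myelin would. Of the 18 mature genes, 16 lay above the array median on every one of the 45 arrays, and Gjb1 (the gap junction protein connexin 32) and Nkx6-2 lay above it on most arrays but not all. Of the 13 precursor and lineage genes, 11 lay above the array median on every array. C1ql1 lay below it on every array and Bmp4, with a mean of 6.62, on most. Array medians ran from 6.94 to 6.96. All 16 measured markers of medium spiny neurons, the main cell of the NAC, also lay above the array median on every array, with means from 9.87 to 13.7. Microarray values of different probesets do not rank genes against each other, so levels are compared only within a gene.

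The sequences just upstream of some of these genes are shown because the levels of the mature genes moved together from mouse to mouse, as described below. The 250 bases before the farthest upstream start with a listed sequence were available for 22 of the 33 genes from RefSeq on the mouse build GRCm38.p6. They were searched on both strands for ACAAAG, a core form of the sites read by SOX factors such as SOX10, and for CTGGCAC and CTGGTAC, forms of the site of MYRF, none of which overlaps another of the 3 in these windows. ACAAAG or its reverse complement CTTTGT lay in 5 of the 22 windows (22.7%), those of Mobp, Mag, Cnp, Gjb1 and Opalin, against 16.5% of 27025 gene windows of the same length. CTGGCAC or its reverse complement GTGCCAG lay in 2 (Mag and Cnp), against 4.16% of all windows, and CTGGTAC or its reverse complement GTACCAG in 1 (Mog), against 1.8%. Either form of the MYRF site lay in 5.88% of all windows. Of 14 windows of mature genes 6 held a match of any kind and 8 held none, and none of 8 windows of precursor and lineage genes held one. The share of all windows with a match of any kind was not counted, so the classes are not compared. Of the windows below, 5 were chosen because they hold a match, and capitals mark these matches in the windows of Mobp at chr9:120149492-120149741 (plus strand), Mag at chr7:30914923-30915172 (minus strand), Cnp at chr11:100574689-100574938 (plus strand), Opalin at chr19:41077114-41077363 (minus strand) and Mog at chr17:37023399-37023648 (minus strand). The windows of the mature gene Ugt8a at chr3:125938653-125938902 (minus strand) and of Bmp4, a gene of the committed stage, at chr14:46390670-46390919 (minus strand) hold none of these motifs. The windows of Cnp and Ugt8a run past the outer edge of the listed gene (100574909 and 125938682), so their last bases lie inside it.
Mobp: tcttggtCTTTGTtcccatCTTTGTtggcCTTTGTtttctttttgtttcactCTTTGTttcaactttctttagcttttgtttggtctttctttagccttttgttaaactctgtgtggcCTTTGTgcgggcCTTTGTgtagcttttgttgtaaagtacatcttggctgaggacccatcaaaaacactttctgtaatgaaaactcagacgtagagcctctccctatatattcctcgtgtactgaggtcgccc
Mag: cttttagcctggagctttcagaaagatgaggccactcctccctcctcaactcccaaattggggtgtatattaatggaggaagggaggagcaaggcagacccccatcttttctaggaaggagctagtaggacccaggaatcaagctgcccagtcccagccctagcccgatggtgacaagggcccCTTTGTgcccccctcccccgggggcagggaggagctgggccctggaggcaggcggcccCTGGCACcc
Cnp: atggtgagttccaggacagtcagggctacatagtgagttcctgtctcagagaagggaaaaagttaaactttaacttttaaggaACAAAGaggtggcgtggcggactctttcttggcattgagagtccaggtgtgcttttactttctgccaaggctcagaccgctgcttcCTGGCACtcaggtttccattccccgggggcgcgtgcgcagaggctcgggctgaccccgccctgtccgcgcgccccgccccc
Opalin: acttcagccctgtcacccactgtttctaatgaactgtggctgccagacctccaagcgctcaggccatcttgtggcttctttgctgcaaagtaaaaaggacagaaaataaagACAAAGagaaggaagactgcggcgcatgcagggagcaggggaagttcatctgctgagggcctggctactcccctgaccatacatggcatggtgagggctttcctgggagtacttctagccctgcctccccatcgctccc
Mog: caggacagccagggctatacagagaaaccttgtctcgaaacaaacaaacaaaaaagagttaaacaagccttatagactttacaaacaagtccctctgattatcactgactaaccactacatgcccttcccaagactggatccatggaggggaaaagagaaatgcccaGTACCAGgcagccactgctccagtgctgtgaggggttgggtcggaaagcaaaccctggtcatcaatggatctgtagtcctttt
Ugt8a: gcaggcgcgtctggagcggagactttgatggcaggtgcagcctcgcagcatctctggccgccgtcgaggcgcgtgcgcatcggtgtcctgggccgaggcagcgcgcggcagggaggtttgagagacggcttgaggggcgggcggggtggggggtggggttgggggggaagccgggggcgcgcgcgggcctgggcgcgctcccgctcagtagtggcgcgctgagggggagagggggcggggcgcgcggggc
Bmp4: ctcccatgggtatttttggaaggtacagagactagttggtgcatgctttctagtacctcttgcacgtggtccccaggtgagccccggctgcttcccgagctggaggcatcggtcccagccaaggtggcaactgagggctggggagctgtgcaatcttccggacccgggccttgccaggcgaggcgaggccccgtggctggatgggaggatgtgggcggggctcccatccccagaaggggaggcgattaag
Mobp held 6 matches, each as CTTTGT, and Mag and Cnp held a match of both kinds. Ugt8a varied with the mature genes although its window holds no match. Such matches describe the letters of the window and show neither binding nor a cause of the levels below.

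The largest differences in mature myelin genes were between single mice and not between groups. Mog, the myelin oligodendrocyte glycoprotein, ran from 8.45 to 11.02 over the 45 arrays, a 5.93-fold range, and its SD within groups was 0.565. Mag, the myelin-associated glycoprotein, spanned 4.96-fold, Opalin 4.77-fold, Aspa (aspartoacylase, which supplies acetate for lipid synthesis) 4.8-fold and Gjb1 4.97-fold. The brightest probeset of Mbp, the myelin basic protein gene, spanned only 1.25-fold near the top of the scale, from 14.06 to 14.38, whereas the 8 probesets of Mbp had means from 8.58 to 14.3 and SDs within groups of up to 1.05. Ctrl 8 h replicate 42 was the lowest array for Mog, Mag, Cnp, Mal, Cldn11, Gjb1, Opalin, Tspan2, Fa2h, Aspa, Gpr37, Ndrg1 and Myrf, and Ctrl 72 h replicate 52 was the highest for every mature gene except Mbp. The mean deviation of the 18 mature genes from their means over all arrays was -1 in Ctrl 8 h replicate 42, -0.96 in Ctrl 7 d replicate 80 and -0.88 in CIE 0 h replicate 67, and it reached 0.84 in Ctrl 72 h replicate 52 and 0.7 in CIE 72 h replicate 63.

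**Figure D1:**
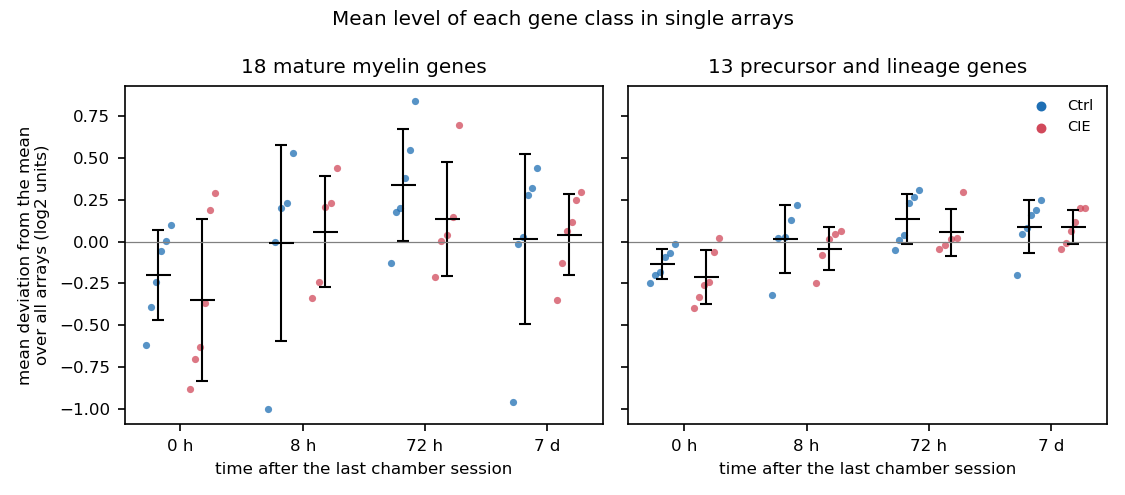
Mean level of the 18 mature myelin genes (left) and the 13 precursor and lineage genes (right) in single arrays, as the mean deviation of the genes from their means over all arrays (y axis, log2 units), by time after the last session. Each point is 1 mouse, and bars give the group mean and SD. Group means of the mature genes lie between -0.35 and 0.34, while single arrays reach from -1 to 0.84.

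This variation was shared by the mature genes. With group means removed, the 153 pairs of mature genes had a median Pearson r of 0.93 over the 45 arrays (0.67 to 0.98). Pairs of precursor and lineage genes had a median r of 0.17 over 78 pairs (-0.47 to 0.96), and the 234 pairs of 1 mature and 1 precursor or lineage gene had a median of 0.35. All genes of an array share its tissue piece and its normalization, so these correlations are descriptions over shared libraries and carry no test.

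The precursor list split by this measure. Olig1 followed the mean of the mature genes with r = 0.98 (Spearman's rho = 0.97), Enpp6, a choline phosphodiesterase of newly formed oligodendrocytes, with r = 0.97, Sox10 with r = 0.94 and Olig2 with r = 0.91. Pdgfra, the receptor that defines precursors, followed it with r = 0.7 and Gpr17, an orphan receptor of the committed stage, with r = 0.65. Tmem100 (r = 0.37), Cspg4, which encodes NG2 (0.19), the Src family kinase gene Fyn (0.19), Bmp4 (0.08), Lhfpl3 (0.05), C1ql1 (0) and Cacng4 (-0.11) followed it little or not at all. Fyn, Lhfpl3 and Cspg4 had small SDs within groups (0.0704, 0.106 and 0.12), as did Mbp (0.0773), which followed it with r = 0.81. Further probesets of Fyn, Lhfpl3 and Cspg4 had r = 0.45, -0.02 and 0.09 with the probesets used. The part of measurement noise in these low values was not tested. Leaving out the 2 arrays farthest from the median of the mature genes gave r = 0.97 for Olig1, 0.68 for Pdgfra and 0.55 for Gpr17. In whole tissue, fewer cells of a type and less RNA per cell cannot be told apart, and neither can the share of white matter in the piece.

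**Figure D2:**
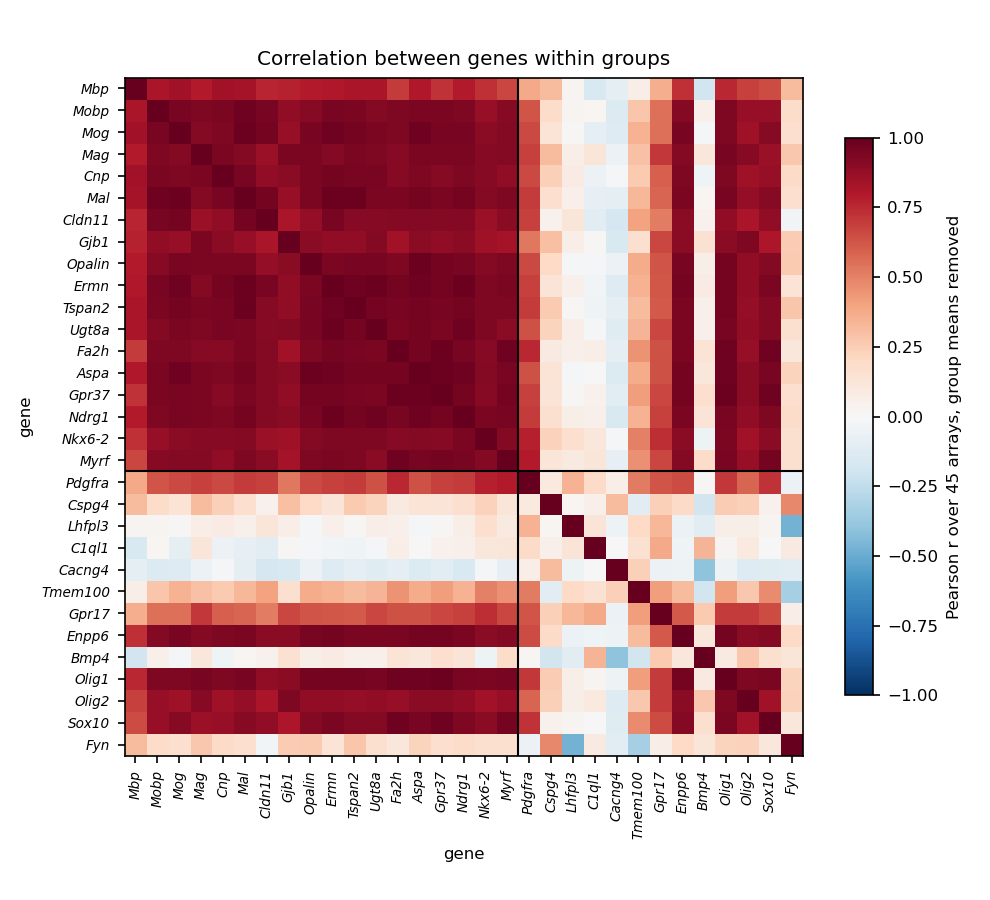
Pearson r between each pair of the 31 genes over 45 arrays after group means were removed (colour, from -1 in blue to 1 in red), with black lines between mature genes and precursor and lineage genes. The mature block is uniformly high (median 0.93), and Olig1, Olig2, Sox10 and Enpp6 join it while Bmp4, Cacng4, Lhfpl3, C1ql1, Cspg4 and Fyn do not.

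Other cell types varied with the mature genes to different degrees. Over the 45 arrays with group means removed, the mature mean had r = 0.59 (rho = 0.56) with the mean of 15 endothelial and pericyte markers, 0.44 with 16 microglia markers and 0.36 with 16 astrocyte markers. It had r = -0.22 with medium spiny neuron markers, -0.15 with cortical pyramidal neuron markers and 0.21 with markers of the septum and other neighbouring regions. Their part in the levels of the oligodendrocyte genes was not tested.

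CIE 0 h replicates 5, 67 and 72 stood apart from the other 0 h arrays in markers of neuron types. In these 3 arrays, the mean deviation of 16 medium spiny neuron markers was -0.38, -0.26 and -0.49 and that of 12 cortical pyramidal neuron markers was 1.02, 0.75 and 1.23. The other CIE 0 h arrays had -0.059 to 0.24 and -0.84 to -0.029, and Ctrl 0 h arrays had -0.12 to 0.21 and -1.01 to 0.55. The values that rest most on CIE 0 h are also given without these 3 arrays, a choice made after the data were seen. Arrays of later times were all kept, among them CIE 7 d replicate 27 with -0.31 and 0.86 in the same order. Median changes of the cortical markers from CIE 0 h to 8 h, 72 h and 7 d were -0.29, -0.33 and -0.2. Without the 3 arrays they were 0.26, 0.32 and 0.51, with 11 of 12 higher each time. Those of medium spiny neuron markers were 0.12, 0.21 and 0.067, and then -0.12, -0.011 and -0.16.

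The first question of the design is whether CIE changed these genes at each time. No mature myelin gene was called between CIE and Ctrl at any time, and of the 31 genes only Cacng4 was called, at 0 h. At 0 h, when 1.59% of all probesets were called, 1 of 31 genes was called and 6 (19.4%) had an unadjusted p under 0.05, against 18.4% of all genes. The background was 0.0622% at 8 h, and at 72 h and 7 d no probeset of the array was called. At an adjusted p of 0.05, Cacng4 was again the only one of the 31 at 0 h, where 3.93% of all probesets met that threshold. The number of the 31 genes with an unadjusted p under 0.05 was 2 at 8 h, 2 at 72 h and 0 at 7 d, or 6.45%, 6.45% and 0%, against 8.04%, 4.56% and 1.97% of all genes.

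The mature genes lay lower in CIE at 0 h and at 72 h, without a call. At 0 h, 16 of 18 had a lower mean in CIE, with a median difference of -0.13 (-0.64 for Ugt8a to 0.07 for Myrf), while 56.9% of all genes had a higher mean in CIE and the median over all genes was 0.017. At 72 h, all 18 had a lower mean, with a median of -0.19 (-0.35 for Ndrg1, a differentiation-related gene, to -0.058 for Mbp), and the median over all genes was 0.032. At 8 h, 13 of 18 were higher with a median of 0.027, and at 7 d, 14 of 18 were higher with a median of 0.03. Because the mature genes move together, 18 equal signs come close to 1 observation. The mature mean was lower in CIE in 3 of 5 inferred hybridization sets at 0 h (-0.63 to 0.25) and in 4 of 5 at 72 h (-0.69 to 0.52), a set being a group of arrays that share exactly equal values in the deposited table. Markers of cortical neurons differed at 72 h as well, with 12 of 12 higher in CIE (median 0.48) and none called, and their mean was 0.6 higher and positive in 5 of 5 sets (0.081 to 1.13). Their part in the values of the mature genes at 72 h was not tested.

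Single arrays decided the sign at the other times. Without Ctrl 8 h replicate 42, the median of the mature genes at 8 h was -0.24 and 2 of 18 were higher in CIE, and without Ctrl 7 d replicate 80 the median at 7 d was -0.18 and 0 of 18 were higher. The median at 8 h was also below 0 without CIE 8 h replicate 23 (-0.012) or 25 (-0.051), and that at 7 d without CIE 7 d replicate 13 or 65 (-0.013 each). At 0 h, the median without CIE 0 h replicate 67 was -0.03 with 7 of 18 higher. At 72 h, 0 of 18 were higher whichever single array of the compared groups was left out, and the median ran from -0.34 to -0.089.

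The precursor and lineage genes had median differences between -0.086 and 0.00078 over the 4 times. At 0 h, 5 of 13 were higher in CIE and the median was -0.079, from -0.47 for Cacng4 to 0.36 for Bmp4. At 8 h, 5 of 13 were higher with a median of -0.047, and at 72 h, 3 of 13 with a median of -0.086. At 7 d, 7 of 13 were higher, from -0.13 for Olig2 to 0.1 for Bmp4. The lineage factors Olig1, Olig2 and Sox10 differed at 0 h by -0.11, -0.16 and -0.23, with adjusted p-values of 0.793, 0.709 and 0.723 (limma).

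**Figure D3:**
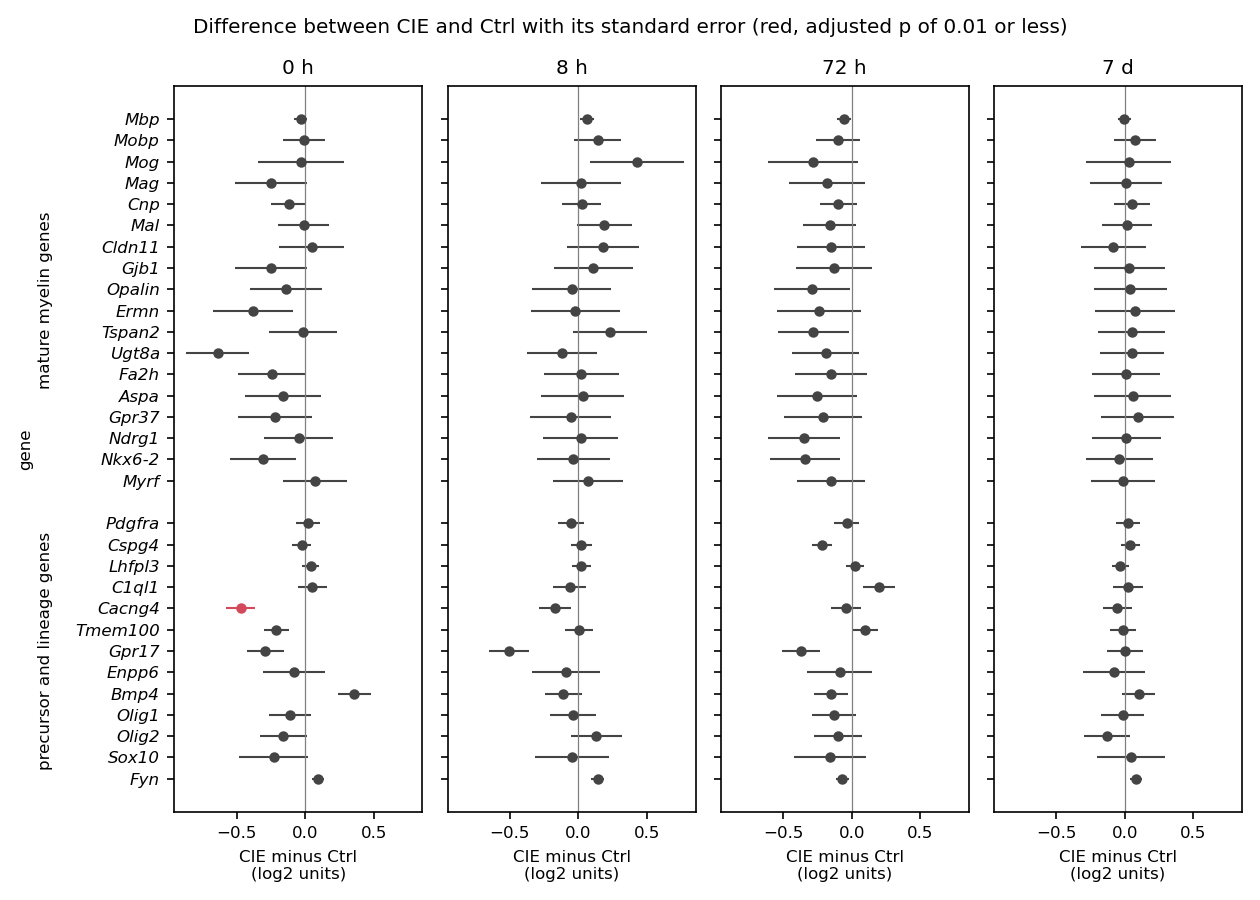
Difference between CIE and Ctrl (x axis, log2 units) for each of the 31 genes (y axis) at 4 times, with the standard error from limma as a bar. Red marks an adjusted p of 0.01 or less, which only Cacng4 at 0 h met (-0.47); all 18 mature genes lie below 0 at 72 h.

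Medians of the neuron markers also lay apart at 0 h, without a call. Between CIE and Ctrl at 0 h, 15 of 16 medium spiny neuron markers were lower (median -0.19) and 9 of 12 cortical markers were higher (median 0.56), and none was called. Without CIE 0 h replicates 5, 67 and 72, 15 of 18 mature genes were higher in CIE at 0 h (median 0.13), as were 9 of 13 precursor and lineage genes (median 0.049), and none of the 31 was called, when 0.52% of all probesets were. Cortical markers were then lower in 11 of 12 (median -0.21) and medium spiny neuron markers higher in 11 of 16 (median 0.031).

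Cacng4, a regulatory subunit of AMPA receptors and calcium channels that precursors express and neurons also use, fell at 0 h in CIE. Its values were 10.03, 10.05, 10.24, 10.43, 10.69 and 10.84 in CIE 0 h, against 10.58 to 11.09 with a median of 10.84 in Ctrl 0 h. The lowest 4 of 6 CIE arrays lay below every Ctrl array, and the other two lay within the Ctrl range. The difference was -0.47 (SE 0.105), 0.724 times the Ctrl level (adjusted p = 0.00575, limma), and it was lower in 4 of 5 sets. A fit on only the arrays of 0 h gave -0.47 with an adjusted p of 0.169. A fit that took the sets as a block gave -0.43 and an adjusted p of 0.0437, and a further probeset of Cacng4 gave -0.31 with an adjusted p of 0.127. The lowest 3 of its values came from the CIE 0 h arrays that stood apart, and without them the difference was -0.19 with an adjusted p of 0.562. Leaving out any one of Ctrl 0 h replicates 20, 30 and 78 or CIE 0 h replicates 5, 26, 67 and 72 took its adjusted p above 0.01, to 0.0321 at most. Over all arrays with group means removed, Cacng4 had r = 0.8 with the medium spiny neuron markers and -0.56 with the cortical markers, whose part in this result was not tested.

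Bmp4, a secreted signal made by committed precursors, had its highest difference at 0 h and did not pass. It ran from 6.4 to 6.94 with a median of 6.6 in CIE 0 h and from 6.06 to 6.44 with a median of 6.3 in Ctrl 0 h, so the groups overlapped only at their edges. The difference was 0.36 (SE 0.122) with an adjusted p of 0.0875 in limma, and it was positive in 5 of 5 sets (0.038 to 0.8). Without CIE 0 h replicates 5, 67 and 72 it was 0.19 (SE 0.145) with an adjusted p of 0.73. Over all arrays, Bmp4 had r = 0.54 with astrocyte markers, 0.46 with cortical markers and -0.53 with medium spiny neuron markers, and their part was not tested.

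Ugt8a, the enzyme that makes the galactolipids of myelin, had the most negative difference of any mature gene at 0 h. Its values in CIE 0 h ran from 10.93 to 12.09 with a median of 11.34, and in Ctrl 0 h from 11.53 to 12.38 with a median of 12.18. The difference of -0.64 (SE 0.233) had an adjusted p of 0.125 in limma and was negative in 5 of 5 sets (-1.38 to -0.29). Without CIE 0 h replicates 5, 67 and 72 it was -0.38 (SE 0.283) with an adjusted p of 0.728. The CIE and Ctrl arrays at 0 h overlapped for every one of the 31 genes, while 1.35% of all probesets had groups that did not overlap.

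Gpr17 was lower in CIE at the first 3 times and level at 7 d. In CIE 8 h its values were 8.45, 8.62, 8.77, 8.81 and 8.9, and in Ctrl 8 h they were 8.72, 9.05, 9.32, 9.39 and 9.6, with only the lowest Ctrl array inside the CIE range. In order of time, the differences were -0.29, -0.51 (SE 0.146), -0.37 and 0.00078, with adjusted p-values of 0.264, 0.155, 0.673 and 1 in limma. Gpr17 was lower in CIE in 3 of 5 sets at 0 h (-1.06 to 0.043), in 4 of 5 at 8 h and in 4 of 5 at 72 h. The difference at 0 h without CIE 0 h replicates 5, 67 and 72 was -0.16 with an adjusted p of 0.843. Averaged over the 4 times, Gpr17 differed by -0.29 (SE 0.069), or 0.817 times the Ctrl level, with an adjusted p of 0.0164, which met a threshold of 0.05 and not that of 0.01. It was the only one of the 31 genes to do so, and 2.28% of all probesets met 0.05 and 0.542% met 0.01 in this average. Without CIE 0 h replicates 5, 67 and 72 the average difference of Gpr17 was -0.26 with an adjusted p of 0.0642.

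Fyn, a kinase that acts in myelination and also in neurons, and Cspg4 had the smallest p-values of the 31 genes at 8 h and 72 h beside Gpr17, and neither passed. At 8 h, Fyn was 10.41, 10.41, 10.43, 10.52 and 10.55 in CIE and 10.25, 10.3, 10.32, 10.37 and 10.37 in Ctrl, so the groups did not overlap, as they did not for 1.93% of all probesets. Its difference was 0.14 (SE 0.0481), with an adjusted p of 0.33 in limma. At 72 h, Cspg4 was 7.86, 7.91, 7.97, 8 and 8.16 in CIE and 8.11 to 8.27 in Ctrl, with a difference of -0.22 (SE 0.073) and an adjusted p of 0.673. A further probeset of Cspg4 gave 0.043 at 72 h with an adjusted p of 0.922 in limma. At 7 d the smallest p was again that of Fyn, with a difference of 0.083 and an adjusted p of 1.

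The difference between CIE and Ctrl did not vary between times beyond the threshold for any of the 31 genes. The test of that variation called 0.124% of all probesets, and its smallest adjusted p among the 31 was 0.487, for Fyn, while 3 of them (9.68%) had an unadjusted p under 0.05 against 8.31% of all genes. The differences listed for Cacng4, Gpr17 and Bmp4 are therefore not shown to differ between times.

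The second question of the design is how these genes changed with time after the last session within Ctrl and within CIE. Gpr17 and Bmp4 were called within both, and Tmem100 within CIE. Within Ctrl, 2 of 31 genes were called when 0.233% of all probesets were, and within CIE 3 of 31 when 2.27% were. The number with an unadjusted p under 0.05 was 4 of 31 within Ctrl (12.9%, against 7.61% of all genes) and 10 of 31 within CIE (32.3%, against 19.4%). The 3 later times of a treatment are all set against its 0 h arrays, so their changes are not independent of each other, and age and the time since pyrazole cannot be told apart from them.

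Gpr17 rose with time in both treatments. In Ctrl its values ran from 8.59 to 9.18 with a median of 8.77 at 0 h, were 8.72, 9.05, 9.32, 9.39 and 9.6 at 8 h, and ran from 9.41 to 10.04 with a median of 9.83 at 72 h and from 9.26 to 9.8 with a median of 9.69 at 7 d. In CIE they ran from 8.07 to 8.71 with a median of 8.65 at 0 h, were 9.21, 9.32, 9.34, 9.37 and 9.84 at 72 h, and ran from 9.5 to 9.76 with a median of 9.62 at 7 d. In each treatment every array of 72 h and 7 d lay above every array of 0 h, and Gpr17 was the only one of the 31 genes of which this was so, as it was for 0.104% of all probesets in Ctrl and 1.19% in CIE in either direction.

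The change of Gpr17 in Ctrl was 0.37 at 8 h (adjusted p = 0.945), 0.95 (SE 0.133) or 1.93-fold at 72 h (adjusted p = 8.78e-05) and 0.78 or 1.72-fold at 7 d (adjusted p = 0.00162) by limma. In CIE it was 0.15 at 8 h (adjusted p = 0.721), 0.86 (SE 0.14) or 1.82-fold at 72 h (adjusted p = 0.000114) and 1.06 or 2.09-fold at 7 d (adjusted p = 8.72e-07). Background calls were 0.0488% and 0.0799% of probesets at 72 h and 7 d in Ctrl and 1.62% and 1.5% in CIE. It was higher than at 0 h in 5 of 5 sets at 72 h and at 7 d in Ctrl, in 5 of 5 at 72 h in CIE and in 6 of 6 at 7 d in CIE. The test over all 4 times gave an adjusted p of 7.4e-05 within Ctrl (0.00285 with the sets as a block) and 2.45e-07 within CIE (4.12e-06). Without the 3 CIE 0 h arrays that stood apart, the value within CIE was 1.1e-05, and the changes were 0.73 at 72 h (adjusted p = 0.00883) and 0.94 at 7 d (adjusted p = 0.000334).

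Gpr17 also rose against the lineage factors. Its log2 value less the mean of Olig1, Olig2 and Sox10 was -1.6 ± 0.26 (SD, n = 6) in Ctrl 0 h and -1.07 ± 0.202 (n = 6) and -1.06 ± 0.229 (n = 6) at 72 h and 7 d. In CIE it was -1.72 ± 0.317 (n = 6) at 0 h and -2.02 ± 0.297 (n = 5) at 8 h, and later -1.31 ± 0.149 (n = 5, 72 h) and -1.03 ± 0.176 (n = 6, 7 d). These reference genes were chosen after their values were seen, and no test was made. Over all arrays, Gpr17 had r = 0.74 with the endothelial and pericyte markers, whose group mean deviation in CIE in order of time was -0.15, 0.006, 0.049 and 0.012, and in Ctrl -0.028, 0.045, 0.084 and -4e-04. Of these 15 markers, 10 were called with time within CIE, where 2.27% of all probesets were, and 0 within Ctrl, where 0.233% were, and their part in the level of Gpr17 was not tested.

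Bmp4 was highest at 7 d in both treatments. In Ctrl it ran from 6.06 to 6.44 with a median of 6.3 at 0 h and from 6.31 to 7.16 with a median of 6.7 at 72 h. At 7 d it ran from 6.7 to 7.2 with a median of 6.96. In CIE it ran from 6.4 to 6.94 with a median of 6.6 at 0 h, was 5.95, 6.29, 6.41, 6.41 and 6.49 at 8 h and 6.24, 6.51, 6.58, 6.59 and 6.82 at 72 h, and ran from 6.86 to 7.42 with a median of 6.95 at 7 d. The level in CIE thus lay lower at 8 h than at 0 h and higher at 7 d, with the 0 h and 7 d arrays overlapping at their edges. In Ctrl the change at 7 d, 1.58-fold, was 0.66 (SE 0.122; adjusted p = 0.00506, limma), and it was positive in 5 of 5 sets. In CIE the changes were -0.33 at 8 h (adjusted p = 0.219), -0.091 at 72 h and 0.41 at 7 d (adjusted p = 0.054), and without the 3 CIE 0 h arrays that stood apart they were -0.16, 0.075 and 0.57 (adjusted p = 0.0204 at 7 d). The test over all times gave adjusted p-values of 0.00693 in Ctrl (0.0217 with the sets as a block) and 0.00105 in CIE (0.00382). Leaving out single arrays took the value in Ctrl above 0.01 in 12 of 23 fits, to 0.0265 at most. In CIE it stayed at or below 0.00585, but without CIE 0 h replicate 17 or 43 the largest change was the negative one at 8 h (-0.38 and -0.37).

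Tmem100, a membrane protein gene with expression in precursors and also in vessel cells, rose within CIE. Its values in CIE ran from 7.19 to 7.67 with a median of 7.39 at 0 h, were 7.71, 7.81, 7.84, 7.96 and 8.03 at 8 h and 7.74, 7.76, 7.77, 7.86 and 8.04 at 72 h, and ran from 7.44 to 8.1 with a median of 7.67 at 7 d. The arrays of 7 d overlapped those of 0 h. The change was 0.47 (SE 0.0968), or 1.38-fold, at 8 h (adjusted p = 0.00467, when 0.633% of probesets were called), 0.43 at 72 h (adjusted p = 0.00538) and 0.28 at 7 d (adjusted p = 0.0919). In Ctrl the change at 8 h was 0.26 with an adjusted p of 0.945, and the difference between the treatments in this change was 0.21 (SE 0.137) with an adjusted p of 0.988. The test over all times within CIE gave 0.00321, and without the 3 CIE 0 h arrays that stood apart it gave 0.147 with a largest change of 0.37. Leaving out CIE 0 h replicate 5, 26 or 72 alone gave 0.0207, 0.014 and 0.0124. The mean of its probesets gave 0.34 with an adjusted p of 0.0963. Over all arrays, Tmem100 had r = -0.65 with cortical markers, 0.45 with endothelial and pericyte markers and 0.4 with medium spiny neuron markers, whose part was not tested.

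**Figure D4:**
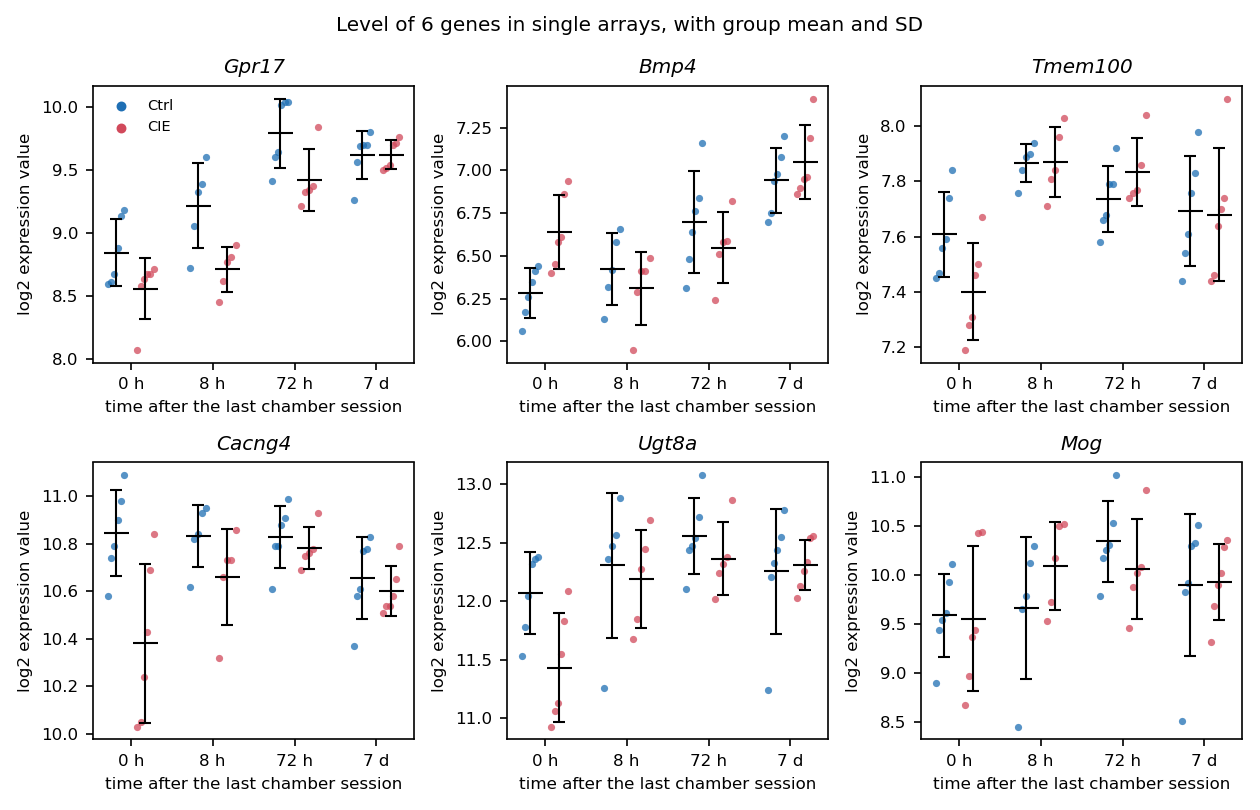
Log2 expression values (y axis) of Gpr17, Bmp4, Tmem100, Cacng4, Ugt8a and Mog in single arrays against time after the last session (x axis); bars give the mean and SD of each group. In each treatment all 72 h and 7 d points of Gpr17 lie above its 0 h points, and the single low Mog points at 8 h (8.45) and 7 d (8.51) are Ctrl replicates 42 and 80.

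The mature genes lay higher at every later time than at 0 h, without a call at 0.01. All 18 had a higher mean at 8 h, 72 h and 7 d than at 0 h in Ctrl, with medians of 0.17, 0.59 and 0.21, and in CIE, with medians of 0.41, 0.53 and 0.37. Without the 3 CIE 0 h arrays that stood apart, the medians in CIE were 0.092, 0.17 and 0.079, and 16, 14 and 13 of 18 were higher. The mean deviation of the microglia markers in CIE was -0.25, 0.051, 0.12 and 0.011 in order of time, and the endothelial and pericyte markers were likewise lowest at 0 h, and their part in the change of the mature genes was not tested. Over all genes the medians of these changes ran from -0.01 to 0.018. At 72 h in Ctrl, 13 of 18 mature genes had an unadjusted p under 0.05, with the changes running from 0.071 for Mbp to 0.76 for Mog, and in CIE 10 of 18 did. Groups overlapped for each mature gene when 72 h and 7 d were set against 0 h. The SD of the mature mean within groups was 0.244 to 0.585, and the group means ran from -0.35 in CIE 0 h to 0.34 in Ctrl 72 h.

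Ugt8a came nearest to a call among the mature genes. Its values in CIE were 11.68, 11.85, 12.28, 12.45 and 12.7 at 8 h and 12.02, 12.24, 12.32, 12.38 and 12.87 at 72 h, and ran from 12.03 to 12.56 with a median of 12.3 at 7 d, against 10.93 to 12.09 at 0 h. Its change in CIE was 0.93 (SE 0.245) at 72 h and 0.88 at 7 d, with adjusted p-values of 0.0198 and 0.0232 in limma, and 0.0256 over all times, at which 4.72% of probesets met 0.05. With the sets as a block that value was 0.0544, and without the 3 CIE 0 h arrays that stood apart it was 0.502, with changes of 0.68 at 72 h and 0.63 at 7 d. In Ctrl its change at 72 h was 0.49 with an adjusted p of 0.874.

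Among the other lineage genes, Pdgfra had changes of 0.31 at both 72 h and 7 d in Ctrl (adjusted p = 0.291 and 0.254, limma) and of 0.26 and 0.31 in CIE (adjusted p = 0.105 and 0.0322), which were 0.13 and 0.18 without the 3 CIE 0 h arrays that stood apart. Olig2 had changes of 0.54, 0.49 and 0.39 in CIE and Sox10 of 0.51, 0.59 and 0.52, and none passed. Without those arrays the changes were 0.39, 0.34 and 0.24 for Olig2 and 0.24, 0.32 and 0.24 for Sox10. Cacng4 had a change of 0.4 at 72 h in CIE (adjusted p = 0.0269), positive in 5 of 5 sets, and of -0.018 at 72 h in Ctrl. Without those arrays its change in CIE was 0.13 (adjusted p = 0.64). Cspg4, Lhfpl3, C1ql1 and Fyn had changes between -0.11 and 0.19 in both treatments.

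**Figure D5:**
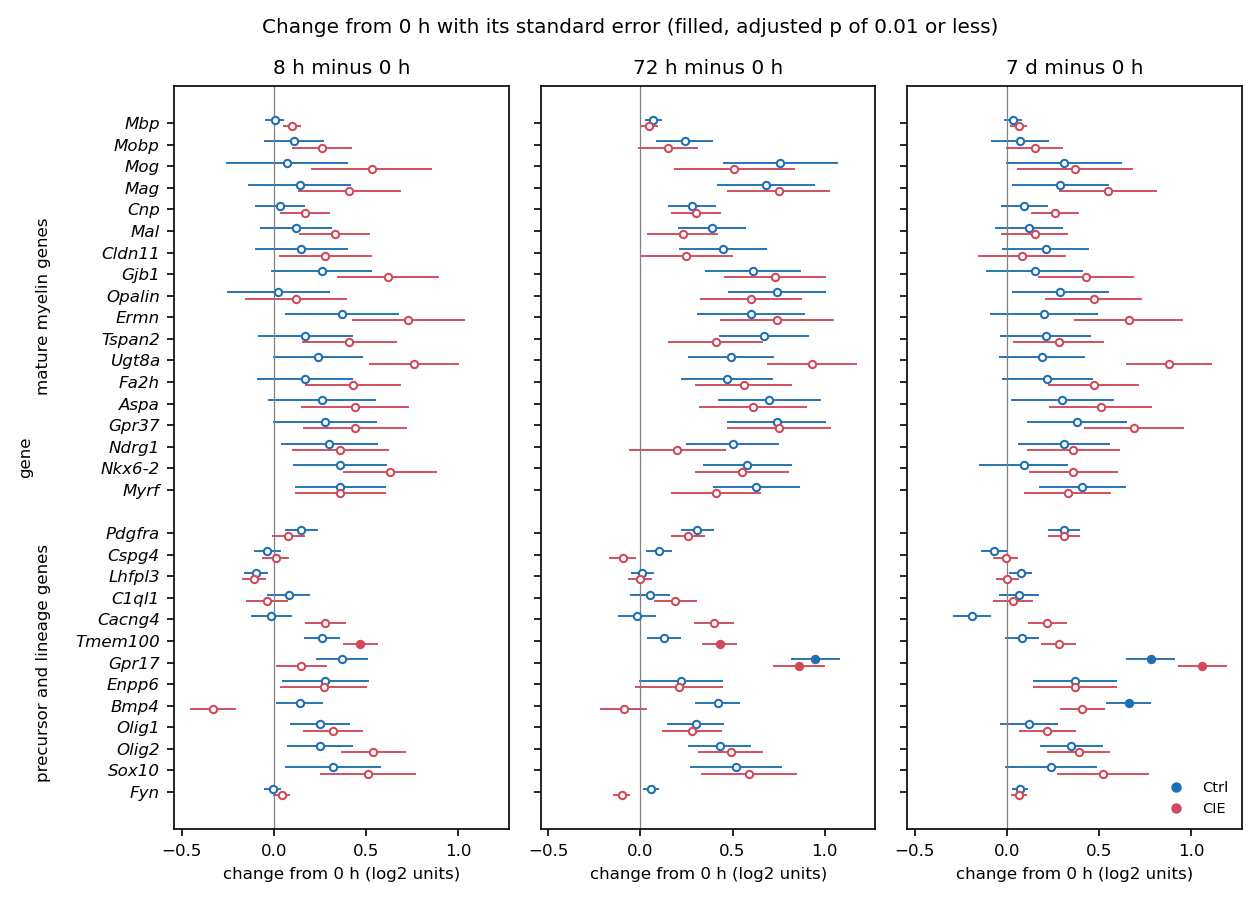
Change from 0 h (x axis, log2 units) of each of the 31 genes (y axis) at 8 h, 72 h and 7 d in Ctrl (blue) and CIE (red), with standard errors from limma as bars and filled points for an adjusted p of 0.01 or less. Filled points belong to Gpr17, Bmp4 and Tmem100, and all open points of the 18 mature genes lie above 0.

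Probesets of a gene did not always give the same call. Of the 65 probesets, 3 were called with time within Ctrl, those used for Gpr17 and Bmp4 and a further probeset of Fyn with a largest change of 0.22 (adjusted p = 0.00847), where the brightest probeset of Fyn gave an adjusted p of 0.877. Within CIE, further probesets of Opalin (0.85, adjusted p = 0.0296), Pdgfra (0.23, adjusted p = 0.0193) and Fyn (0.19, adjusted p = 0.0143) met 0.05 where the brightest did not. The Fyn probeset is the same one that was called within Ctrl. A further probeset of Tmem100 gave 0.24 with an adjusted p of 0.667 within CIE. Directions differed as well, although most further probesets of mature genes had a positive largest change with time. A further probeset of Mobp gave -0.69 within CIE and 0.53 within Ctrl, and a further probeset of Mbp gave -0.48 within Ctrl and -0.22 within CIE, without a call.

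Other genes of the lineage, from lists fixed by name, likewise gave no call between CIE and Ctrl. Of 33 measured other mature oligodendrocyte genes, 25 were lower in CIE at 0 h (median -0.17) and 32 at 72 h (median -0.18). Of 28 other precursor and committed genes, 18 were higher at 0 h (median 0.028). Of 26 signals to the lineage, 16 were higher at 0 h (median 0.03). At 0 h, 20 of 33 other mature genes were higher in CIE (median 0.098) without the 3 CIE 0 h arrays that stood apart. With the same arrays left out, 9 of 28 precursor and committed genes (median -0.056) and 14 of 26 signals (median 0.019) were higher. In limma, 0 genes of the 3 lists were called in any CIE minus Ctrl comparison or with time within Ctrl. At an unadjusted p under 0.05 in the average over times there were 1, 10 and 1 genes of these lists, the 10 of 28 precursor and committed genes being 35.7% against 15.2% of all genes. Within CIE, 1 of 33, 1 of 28 and 2 of 26 genes of these lists were called with time, against 2.27% of all probesets, and they are named after their values were seen. Klk6, a secreted protease of mature oligodendrocytes, rose from a mean of 7.3 ± 0.384 (SD, n = 6) at 0 h to 8.43 ± 0.33 (n = 5) at 72 h (change 1.13). Without the 3 CIE 0 h arrays that stood apart, no gene of its list was called at any single time, Klk6 included. Ednrb, an endothelin receptor, had a largest change of 0.54, Notch1 of 0.38 and Klf9, a thyroid hormone and glucocorticoid responsive factor, of -0.18. With the same arrays left out, Ednrb was still called at 7 d, and neither Notch1 nor Klf9 was called at any single time. Klk6 had a change of 0.71 at 72 h in Ctrl that was not called (adjusted p = 0.346, limma).

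Markers of other cell types also differed at 0 h. Between CIE and Ctrl at 0 h, when 1.59% of all probesets were called, the microglia markers P2ry12, Fcrls and Olfml3 were called lower among 14 of 16 that were lower (median -0.18), the astrocyte marker Gjb6 was called higher, and 12 of 15 endothelial and pericyte markers were lower (median -0.14) with 1 called in each direction. The mean deviation of the endothelial and pericyte markers was -0.32 to -0.084 in CIE 0 h and -0.058 to 0.028 in Ctrl 0 h, and did not overlap. Without the 3 CIE 0 h arrays that stood apart, 12 of 16 microglia markers were lower (median -0.18), with Fcrls and Olfml3 called, as were 11 of 15 endothelial and pericyte markers (median -0.16), with Slc2a1 called, and no astrocyte marker was called. The part of these markers in the values of the oligodendrocyte genes was not tested.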

How the data were processed

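Total RNA from the nucleus accumbens was hybridized to 45 Affymetrix expression arrays, 1 mouse per array, so replicates are separate mice. The labels describe equal groups of mice, and 3 groups held 5 arrays here. The log2 values deposited by the authors had been background corrected by RMA and quantile normalized within each hybridization batch, quantile normalized again over all arrays and adjusted for batch with ComBat (RMA version not given in the sources used here). Prior removal of a batch can make p-values too small when batches are not fitted. Arrays give no read depth, and precision rests on their number.

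Of 45037 probesets, 34945 carried 1 gene symbol, 932 several and 9160 none. A gene took its probeset with the highest mean. limma 3.58.1 in R 4.3.3 fitted 8 group means, with empirical Bayes and Benjamini-Hochberg adjustment within each contrast and F test. The threshold was an adjusted p of 0.01, with 0.05 given where stated. For an F test the change given is the largest change from 0 h. Sets were inferred from exactly equal values (tolerance 2e-08, at least 5 per pair): 6 sets of 6 to 8 arrays, no more than 1 array of a group in each, and 1 array in none. Genes given with values in every array were those called in any test, then those at 0.05 and those with the smallest p in each CIE minus Ctrl comparison. The members and lists were chosen with earlier results of these data known. Tests of single times against 0 h, and fits without CIE 0 h replicates 5, 67 and 72, were added after the data were seen. Scripts were tested on simulated data. Other normalization, centring, spread models, array weights, fits of single times, a set block, other values per gene, filters and the removal of each array were tried.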

Additional observations from a re-analysis of the deposited data

Results flagged for a closer look

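Within each group of 5 or 6 arrays, the highest and lowest value of each of the 31 genes was compared with the rest by Dixon's test, which flags about 1 in 20 groups by chance, and 24 of 248 groups held such a value. Because the mature genes move together, flags in 1 array are close to 1 observation.

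Ctrl 7 d replicate 80 was far below the other arrays of its group for 11 mature genes, with Mobp at 12.82, Mog at 8.51, Mag at 10.13, Cnp at 13.04, Mal at 12.23, Gjb1 at 6.95, Opalin at 9.65, Tspan2 at 10.34, Ugt8a at 11.24, Aspa at 9.7 and Ndrg1 at 10.67. Ctrl 8 h replicate 42 was far below its group for 6 genes, with Mobp at 12.87, Cldn11 at 9.96, Gjb1 at 6.77, Fa2h at 9.11, Gpr37 at 10.08 and Enpp6 at 7.33. CIE 72 h replicate 63 was far above its group for Mag (12.26), Gpr17 (9.84) and Olig2 (9.96). Single flags were Cldn11 in Ctrl 0 h replicate 20 (lowest, 10.14), Cspg4 in Ctrl 7 d replicate 62 (lowest, 7.74), Gpr17 in CIE 0 h replicate 5 (lowest, 8.07) and Fyn in Ctrl 72 h replicate 52 (highest, 10.54).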

How the results depend on the processing

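No paired analysis was possible because the replicate numbers name single mice and no number occurs in more than 1 group, so only the inferred sets served as a block. In the comparison at 0 h, the count of called genes was 0 in place of 1 (Cacng4) with array weights, with only the arrays of that time, with the sets as a block, with the mean of a gene's probesets and without CIE 0 h arrays 5, 67 and 72, and it ran from 0 to 1 when single arrays were left out (Cacng4 -0.56 to -0.4, past 0.01 in 5 of 12 fits and past 0.05 in 12). The median of the precursor genes at 0 h was 0.049 without CIE 0 h arrays 5, 67 and 72 and ran from -0.21 to 0.004 without single arrays. In the average over times, 1 gene was called in place of 0 with array weights (Gpr17, -0.3, adjusted p = 0.00489, limma), and 0 to 1 without single arrays (1 without Ctrl 8 h replicate 42, Ctrl 72 h replicate 44 or CIE 72 h replicate 63). With time within Ctrl, 1 gene was called in place of 2 with array weights and with the sets as a block, and 1 to 2 without single arrays. The count was also 1 with only the probesets above the median, a filter that left Bmp4 out before the test. Gpr17 was called in all of these and Bmp4 in 11 of 23 fits without a single array. Within CIE the count was 2 to 3 in every alternative. The largest change of Bmp4 from 0 h within CIE ran from -0.38 to 0.47 without single arrays, turning negative without CIE 0 h replicate 17 (-0.38) or 43 (-0.37), when the change at 8 h became larger than that at 7 d. Tmem100 within CIE lost its call without CIE 0 h replicate 5 (0.42, adjusted p = 0.0207), 26 (0.014) or 72 (0.0124). The counts at 8 h, 72 h and 7 d and of differences between times were 0 in every alternative.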

Other observations

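Ugt8a stood lower relative to the lineage factors in CIE 0 h than in the other groups, a comparison chosen after the values were seen and not tested. Its log2 value less the mean of Olig1, Olig2 and Sox10 was 1.16 ± 0.149 (SD, n = 6) in CIE 0 h, from 0.96 to 1.34, and 1.63 ± 0.186 (n = 6) in Ctrl 0 h, from 1.34 to 1.83. The means of the remaining groups lay between 1.46 (CIE 8 h) and 1.7 (Ctrl 72 h).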
